A study of Mus musculus with 15 samples.

Results

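The genes described here are 34 non-collagen genes of the extracellular matrix and of its remodelling, chosen by name. They comprise 9 structural glycoproteins, 8 elastic fibre and microfibril genes, 6 proteoglycans, 4 crosslinking enzymes of the lysyl oxidase family, 4 matrix metalloproteinases and 3 tissue inhibitors of metalloproteinases. Of these, 32 were measured, out of 18193 genes that have a probe set of their own on the array. Fbn1 and Loxl2 have no probe set here that names them alone and were not analysed here.

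Expression was measured on 15 Affymetrix mouse arrays, 3 in each of 5 groups. MEF are the mouse embryonic fibroblasts of the B6D2F1 background from which induced pluripotent stem (iPS) cells were derived. CL11 is an embryonic stem (ES) cell line of the same background, and IP14D-1 and IP20D-3 are iPS lines of that background. IP14D-101 is an iPS line of the C57x129S2 background, so its line and its genetic background cannot be told apart, and MEF do not match it. Each ES or iPS group is a single line. These 4 lines had been grown with LIF on feeder fibroblasts treated with mitomycin C, in medium with serum or with a serum replacement. Which medium each line had, whether and how feeders were removed before the cells were pelleted and which agents reprogrammed the iPS cells are not given in the sources used here.

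The extracellular matrix is the protein mesh that fibroblasts secrete around themselves. Glycoproteins such as fibronectin link cells to the mesh, elastic fibres and their microfibrils let it stretch, and proteoglycans space and hydrate its collagen fibrils. Lysyl oxidases crosslink collagen and elastin, matrix metalloproteinases cut the matrix, and TIMP proteins inhibit them. Fibroblast cultures are rich in this programme, while early embryonic cells make mainly a basement membrane, a thin sheet of laminin, type IV collagen and nidogen.

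Levels are given as log2(signal + 16) after each array was scaled to a common trimmed mean, so a difference of 1 is a doubling. A level of 11.04, the 95th percentile of 39 olfactory receptor genes, was taken as background. Arrays of a group correlated at 0.941 to 0.954 over all genes. The labels were checked against defining markers. All 11 pluripotency markers examined, such as Pou5f1 and Nanog, were above background in each of the 4 lines and 0 of 11 in MEF, and all 13 fibroblast markers examined were above background in MEF. In the lines 3 to 5 of the 13 fibroblast markers were above background, and their summed signal was 1.65% of MEF in CL11, 1.55% in IP14D-1, 1.06% in IP20D-3 and 1.92% in IP14D-101. In these bulk samples fewer matrix-making cells and less RNA per cell cannot be told apart.

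All 32 measured matrix genes were above background in MEF. In CL11 16 of 32 were above background, in IP14D-1 25, in IP20D-3 19 and in IP14D-101 18. The 32 genes had a median level of 18.00 in MEF, against 11.08 for CL11, 12.62 for IP14D-1, 11.33 for IP20D-3 and 11.36 for IP14D-101. For comparison, the group mean of 62.0% of all genes lay above background in MEF and of 61.7% to 64.3% in the lines. Fbln5, Mfap4, Dcn, Lum, Ogn and Aspn were below background in all 4 lines. By the brightest probe set 15 genes were above background in all 4 lines: Fn1, Sparc, Thbs1, Nid1, Fbln1, Fbln2, Mfap2, Mfap5, Vcan, Loxl1, Loxl3, Mmp2, Mmp14, Timp1 and Timp2. Not every probe set of these genes was. The other probe set of Fbln2, Loxl1 and Mfap2 was above background in MEF but below it in all 4 lines. It lay at 6.69 to 7.97 for Fbln2, 6.86 to 7.68 for Loxl1 and 9.63 to 9.93 for Mfap2 in the lines. By another of its probe sets Timp3 was also above background in all 4 lines, at 11.35 in IP20D-3, while the brightest one, used throughout, was at 10.93 there.

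**Figure D1:**
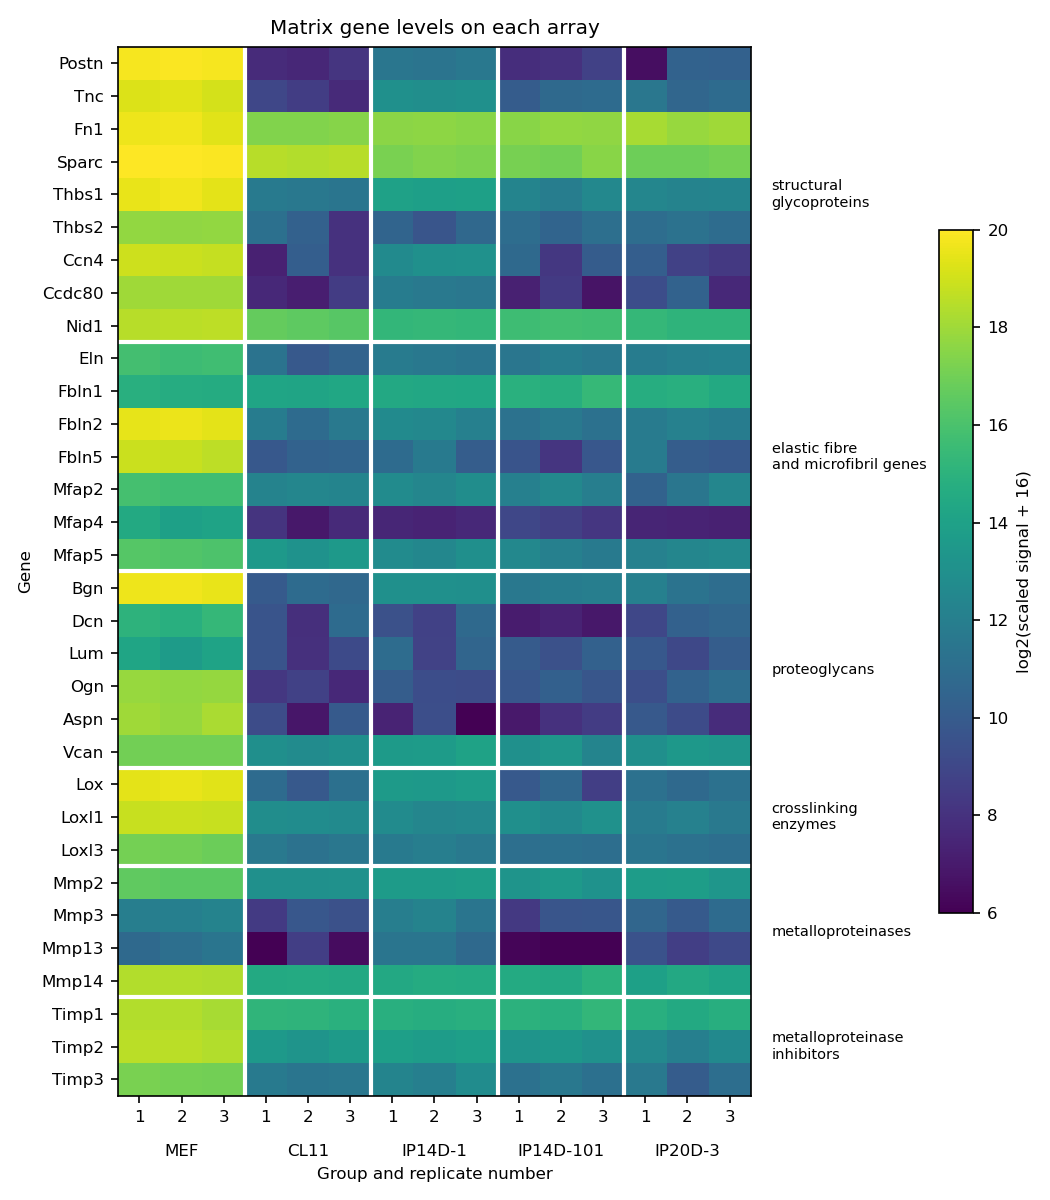
Level of each of the 32 matrix genes, as log2(signal + 16), on each of the 15 arrays, with genes ordered by role and arrays by group. MEF arrays are the brightest for most genes, Mmp3 and Mmp13 being dim there too, and the 4 lines are bright for Fn1, Sparc, Nid1, Fbln1, Mmp14 and Timp1, with a further set raised in IP14D-1.

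The first question was how far the ES and iPS lines differed from the fibroblasts. Tested with limma over all 18193 genes, 32 of 32 members were lower in CL11 than in MEF, 30 in IP14D-1, 31 in IP20D-3 and 31 in IP14D-101. Over all genes, 23.8% were called lower in CL11, 22.9% in IP14D-1, 23.7% in IP20D-3 and 24.7% in IP14D-101. Called higher were 0 members in CL11, IP14D-1 and IP20D-3 and 1, Fbln1, in IP14D-101, where all genes gave 30.3%, 29.9%, 30.4% and 30.4% in CL11, IP14D-1, IP20D-3 and IP14D-101. The members' median log2 difference from MEF was -5.49 in CL11, -4.95 in IP14D-1, -5.92 in IP20D-3 and -5.65 in IP14D-101, beside 0.07, 0.13, 0.10 and 0.05 over all genes. The 4 comparisons share the MEF arrays. Where a group's mean lay below background, changes are given as a lower bound, with the dim arrays raised to background.

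Among the structural glycoproteins, Postn encodes periostin, a matricellular protein of connective tissue. Its level was 19.83, 19.92 and 19.78 in MEF, against 7.75, 7.53 and 8.15 in CL11, 11.51, 11.38 and 11.63 in IP14D-1, 6.50, 10.41 and 10.34 in IP20D-3 and 7.84, 8.01 and 8.69 in IP14D-101. No line overlapped MEF, all 3 IP14D-1 arrays were above background, and 1 IP20D-3 array lay far below its other two. In CL11 it was at least 448-fold lower (adjusted p = 2.5e-11), and in IP14D-1 324-fold lower (adjusted p = 5.4e-09). Fn1, which encodes fibronectin, stood at 19.62, 19.71 and 19.39 in MEF, 17.37, 17.36 and 17.46 in CL11, 17.57, 17.63 and 17.51 in IP14D-1, 18.19, 17.87 and 18.03 in IP20D-3 and 17.53, 17.71 and 17.70 in IP14D-101. It stayed bright in every line, at 22.1% of the MEF signal in CL11 and 34.4% in IP20D-3. Sparc, a calcium-binding glycoprotein that also occurs in embryonic basement membranes, stood at 20.03, 20.09 and 19.91 in MEF, 18.48, 18.37 and 18.48 in CL11, 17.16, 17.36 and 17.25 in IP14D-1, 16.92, 16.89 and 17.09 in IP20D-3 and 17.15, 17.00 and 17.50 in IP14D-101. CL11 kept 33.8% of the MEF level, the most among the 4 lines, and the iPS lines kept 14.8%, 12.2% and 14.6%. Nid1, the nidogen that joins laminin to type IV collagen, was at 24.6% of MEF in CL11 and at 10.6%, 9.62% and 13.8% in IP14D-1, IP20D-3 and IP14D-101. The other 5 genes of the role were further down. Thbs1, the adhesion protein thrombospondin 1, was at 0.408% of MEF in CL11, and Tnc, Thbs2, Ccn4 and Ccdc80 were below background there and at least 293-fold, at least 100-fold, at least 226-fold and at least 126-fold lower.

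The elastic fibre and microfibril genes were lower than MEF in 7 of 7 in CL11 and IP14D-1 and in 6 of 7 in IP14D-101 and IP20D-3, with Fbln1 as the exception. Fbln2, a fibulin of vessel walls and basement membranes, stood at 19.50, 19.62 and 19.42 in MEF, 11.90, 10.92 and 11.66 in CL11, 12.68, 12.56 and 12.09 in IP14D-1, 11.85, 12.17 and 11.87 in IP20D-3 and 11.26, 11.65 and 11.22 in IP14D-101. All 4 lines were far below MEF, with a log2 difference of -8.02 ± 0.22 (model standard error) in CL11 and an adjusted p of 5.6e-16. Fbln5, needed for elastic fibre assembly, was at 18.86, 18.84 and 18.61 in MEF and below background on average in each line, and CL11 was at least 213-fold lower (adjusted p = 3.0e-11). Mfap5, a microfibril-associated glycoprotein, was partly kept: 16.31, 16.21 and 16.09 in MEF, 13.57, 13.13 and 13.52 in CL11, 12.77, 12.51 and 12.97 in IP14D-1, 12.16, 12.43 and 12.59 in IP20D-3 and 12.53, 12.08 and 11.70 in IP14D-101. CL11 held 14.5% of the MEF signal and IP14D-101 5.96%. Eln, which encodes tropoelastin, was at least 23.8-fold lower in CL11, and Mfap4 was at least 8.85-fold lower.

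Fbln1, a fibulin of elastic fibres and basement membranes, was the member closest to its MEF level in CL11, IP14D-101 and IP20D-3. It stood at 14.81, 14.68 and 14.62 in MEF, 14.25, 14.15 and 14.34 in CL11, 14.46, 14.38 and 14.34 in IP14D-1, 14.74, 14.82 and 14.51 in IP20D-3 and 14.91, 14.79 and 15.37 in IP14D-101. IP14D-101 and IP20D-3 overlapped MEF. The log2 difference from MEF was -0.46 ± 0.13 in CL11 (adjusted p = 0.0051), -0.31 ± 0.13 in IP14D-1 (adjusted p = 0.049), -0.01 ± 0.13 in IP20D-3 (adjusted p = 0.94) and 0.32 ± 0.13 in IP14D-101 (adjusted p = 0.042). The 3 calls did not hold under every setting: the IP14D-101 difference was 0.15 with an adjusted p of 0.28 without IP14D-101 replicate 3, and -0.06 with the mean of the gene's probe sets.

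The 6 proteoglycans were all lower in each line. Bgn, the small leucine-rich proteoglycan biglycan, stood at 19.64, 19.72 and 19.52 in MEF, 9.99, 10.88 and 10.74 in CL11, 13.04, 13.04 and 12.97 in IP14D-1, 12.09, 11.34 and 10.99 in IP20D-3 and 11.59, 11.88 and 11.96 in IP14D-101. CL11 was below background, and IP14D-1 was the highest line at 1.02% of MEF. Aspn and Ogn, which encode the leucine-rich proteins asporin and osteoglycin, were bright in MEF (17.98, 17.80 and 18.20 in MEF for Aspn, 17.85, 17.72 and 17.80 in MEF for Ogn) and below background on average in all 4 lines. CL11 was at least 124-fold lower for Aspn (adjusted p = 2.1e-08) and at least 108-fold lower for Ogn (adjusted p = 1.1e-12). Dcn and Lum, which encode the collagen-fibril proteoglycans decorin and lumican, were at least 16.3-fold and at least 7.78-fold lower in CL11. Vcan, the large proteoglycan versican, was the 1 proteoglycan above background in all 4 lines, at 5.79%, 10.8%, 7.37% and 6.0% of MEF in CL11, IP14D-1, IP20D-3 and IP14D-101.

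The 3 measured lysyl oxidases were lower in each line. Lox, the founding enzyme of the family, stood at 19.43, 19.53 and 19.39 in MEF, 10.90, 9.89 and 11.18 in CL11, 13.61, 13.56 and 13.76 in IP14D-1, 11.23, 10.78 and 11.21 in IP20D-3 and 9.90, 10.66 and 8.62 in IP14D-101. IP14D-1 held 1.78% of the MEF signal and the other lines less, with CL11 at least 330-fold lower than MEF (adjusted p = 3.1e-13). Loxl1, which acts on elastin, stood at 18.85, 18.87 and 18.83 in MEF, 12.87, 12.83 and 12.73 in CL11, 12.76, 12.41 and 12.52 in IP14D-1, 11.85, 12.17 and 11.68 in IP20D-3 and 12.96, 12.65 and 13.07 in IP14D-101, and IP20D-3 was the lowest line. Loxl3 was at 2.25%, 2.71%, 1.84% and 1.69% of MEF in the same order of lines.

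The metalloproteinases had the smallest median difference of the 6 roles in each line, with a log2 difference from MEF of -3.68 in CL11, -1.49 in IP14D-1, -2.46 in IP20D-3 and -3.47 in IP14D-101. These medians hold values below background, and Mmp13 lay close to background in MEF. Mmp14, a membrane-bound collagenase that activates Mmp2, stood at 18.39, 18.38 and 18.35 in MEF, 14.49, 14.53 and 14.44 in CL11, 14.46, 14.61 and 14.55 in IP14D-1, 13.94, 14.44 and 14.14 in IP20D-3 and 14.56, 14.47 and 14.92 in IP14D-101. The 4 lines lay close together at 6.75%, 7.01%, 5.49% and 7.63% of MEF. Mmp2, the gelatinase that cuts denatured and type IV collagen, stood at 16.61, 16.46 and 16.45 in MEF, 13.02, 13.01 and 13.07 in CL11, 13.68, 13.66 and 13.78 in IP14D-1, 13.72, 13.79 and 13.37 in IP20D-3 and 13.23, 13.53 and 13.12 in IP14D-101, and no line overlapped MEF.

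Mmp3, or stromelysin 1, and Mmp13, a collagenase, went another way. Mmp3 stood at 11.98, 12.02 and 12.28 in MEF, 8.38, 9.80 and 9.49 in CL11, 12.02, 12.25 and 11.46 in IP14D-1, 10.62, 9.94 and 10.91 in IP20D-3 and 8.34, 9.67 and 9.73 in IP14D-101. IP14D-1 overlapped MEF, with a log2 difference of -0.19 ± 0.52 (adjusted p = 0.8), while the other 3 lines were below background. Mmp13 was just above background in MEF and stood at 10.80, 11.09 and 11.42 in MEF, 5.83, 8.62 and 6.47 in CL11, 11.42, 11.44 and 10.79 in IP14D-1, 9.52, 8.60 and 9.09 in IP20D-3 and 6.17, 5.33 and 5.14 in IP14D-101. IP14D-1 again overlapped MEF, with a difference of 0.11 ± 0.73 (adjusted p = 0.92). A p above 0.05 does not show that these levels are alike. In IP20D-3 both were called lower, by -1.61 ± 0.52 for Mmp3 (adjusted p = 0.013) and -2.03 ± 0.73 for Mmp13 (adjusted p = 0.025). Without IP20D-3 replicate 2 the Mmp3 difference was -1.33 (adjusted p = 0.061). Mmp13 lost its call without MEF replicate 2 (-2.04, 0.057), MEF replicate 3 (-1.87, 0.078), IP20D-3 replicate 2 (-1.80, 0.082) or IP20D-3 replicate 3 (-2.04, 0.0515).

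By their brightest probe sets Postn, Tnc, Ccn4, Ccdc80, Mmp3 and Mmp13 were the 6 members above background in IP14D-1 and in no other line. Tnc in IP20D-3 lay just under the background of 11.04, at 11.01, and Mmp13 in IP14D-1 just over it, at 11.22 with 2 arrays above. By another probe set Tnc and Ccdc80 were below background in IP14D-1 too, at 7.47 and 9.05, while Ccn4 was above it, at 12.32. The upstream sequences of the 4 of these 6 members found in the promoter table are shown because the members share this pattern by their brightest probe sets. They are from RefSeq (GRCm38.p6), the 150 bases before a transcription start, 5′ to 3′. They lie at chr9:7272364-7272513 on the plus strand (Mmp13), chr9:7445672-7445821 on the plus strand (Mmp3), chr3:54360957-54361106 on the plus strand (Postn, the downstream of its listed starts) and chr4:64047016-64047165 on the minus strand (Tnc, the upstream of its listed starts). Capitals mark matches to TGANTCA, the letters bound by AP-1 factors, and to TATAAA, the TATA box, searched on both strands.
Mmp13: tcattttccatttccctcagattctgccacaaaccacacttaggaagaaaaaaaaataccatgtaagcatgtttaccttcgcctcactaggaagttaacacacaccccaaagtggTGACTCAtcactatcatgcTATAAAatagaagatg
Mmp3: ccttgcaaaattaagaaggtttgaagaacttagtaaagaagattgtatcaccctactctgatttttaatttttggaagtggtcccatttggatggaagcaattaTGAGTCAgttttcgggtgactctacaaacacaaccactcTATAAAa
Postn: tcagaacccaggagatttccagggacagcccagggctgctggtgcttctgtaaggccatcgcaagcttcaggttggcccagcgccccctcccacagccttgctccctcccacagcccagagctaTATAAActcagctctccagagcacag
Tnc: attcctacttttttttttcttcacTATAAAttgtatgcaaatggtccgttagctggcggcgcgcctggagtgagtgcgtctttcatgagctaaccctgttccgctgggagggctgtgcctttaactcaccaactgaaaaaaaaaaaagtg
Mmp13 holds TGACTCA at positions -35 to -29 from the start and TATAAA at -16 to -11, and Mmp3 holds TGAGTCA at -46 to -40 and TATAAA at -7 to -2. At the starts shown, Postn holds TATAAA at -26 to -21 and Tnc at -126 to -121. The other listed start of Postn has no TATAAA within 250 bases, and that of Tnc has it at -205 to -200, outside a window of 150 bases. Within 250 bases before the start, TGANTCA occurred in 6.75% of all 32851 listed promoters and in 2 of the 24 promoters listed for 19 members, those of Mmp13 and Mmp3. TATAAA occurred in 12.4% of all promoters and in 8 of the 24, belonging to Aspn, Mmp13, Mmp3, Ogn, Postn, Thbs2 and Tnc. CATTCC, the letters bound by TEAD factors, occurred in 12.6% of all promoters and in 4 of the 24, CAGAC (SMAD) in 42.2% and in 8, GGGCGG (SP1) in 32.7% and in 13, and CANNTG (E-box) in 66.2% and in 18. A match describes the letters of the window and does not show that a factor binds there.

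The 3 inhibitors were lower in each line. Timp2, which also takes part in Mmp2 activation, stood at 18.53, 18.56 and 18.37 in MEF, 13.60, 13.23 and 13.65 in CL11, 13.90, 13.72 and 13.89 in IP14D-1, 12.56, 12.04 and 12.65 in IP20D-3 and 13.23, 13.39 and 13.07 in IP14D-101. IP20D-3 was the lowest line. Timp1 stood at 18.37, 18.38 and 18.17 in MEF, 15.16, 15.09 and 14.88 in CL11, 14.86, 14.73 and 14.82 in IP14D-1, 14.86, 14.49 and 14.77 in IP20D-3 and 14.99, 14.82 and 15.25 in IP14D-101, and the lines kept 10.4%, 8.79%, 8.25% and 10.3% of MEF. Timp3, which binds to the matrix, was at 17.17, 17.08 and 17.00 in MEF, 11.74, 11.46 and 11.56 in CL11, 12.29, 12.06 and 12.81 in IP14D-1, 11.64, 10.10 and 11.05 in IP20D-3 and 11.22, 11.62 and 11.17 in IP14D-101, and no line overlapped MEF.

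**Figure D2:**
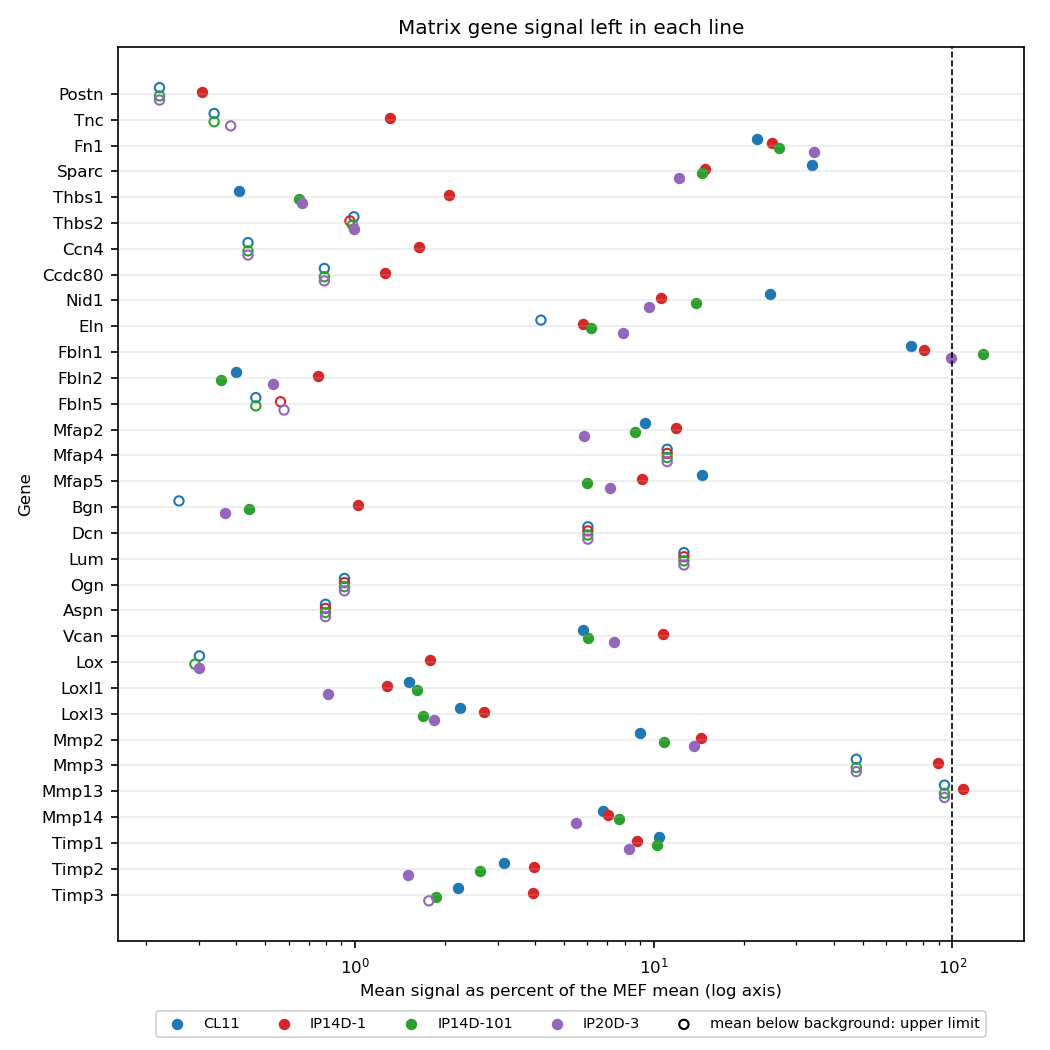
Signal of each matrix gene in each line as a percent of its MEF mean, on a log axis, with open points marking upper limits where the line's mean lay below background. Fbln1 lies between 72.9% and 126% in the 4 lines, and in IP14D-1 Mmp3 is at 89.6% and Mmp13 at 109%.

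The next question was whether the 3 iPS lines differed from the ES line CL11 in these genes. IP14D-1 had more matrix RNA of several kinds than CL11: 14 of 32 members were higher and 3 lower, where 11.7% of all genes were higher and 12.6% lower. The members' median log2 difference was 0.67, beside 0.03 over all genes. Higher were the glycoproteins Postn, Tnc, Thbs1, Ccn4 and Ccdc80, the elastic fibre genes Eln and Fbln2, the proteoglycans Bgn, Vcan and Ogn, the crosslinking enzyme Lox and the metalloproteinases Mmp2, Mmp3 and Mmp13. Lower were Sparc, Nid1 and Mfap5. Ogn was below background in both groups. Of these 17 calls, 12 were kept in every alternative run that tested the gene. They were Postn, Tnc, Thbs1, Ccn4, Ccdc80, Bgn, Lox, Mmp2, Mmp3 and Mmp13 higher and Sparc and Nid1 lower. A run limited to genes with a mean over the 15 arrays above background tested 25 of the 32 members. It left out Ccdc80, Mmp3 and Mmp13.

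Thbs1 was 5.06-fold higher in IP14D-1, at 14.00, 13.90 and 13.94 in IP14D-1 against 11.77, 11.61 and 11.45 in CL11 (log2 difference 2.34 ± 0.14, adjusted p = 2.0e-09). Tnc, the glycoprotein tenascin C of developing and healing tissue, stood at 13.03, 12.93 and 13.00 in IP14D-1 and 8.95, 8.52 and 7.66 in CL11, and was at least 3.86-fold higher (adjusted p = 9.5e-09). Ccn4, a secreted WNT-induced protein, stood at 12.69, 13.00 and 13.06 in IP14D-1 and 7.27, 10.18 and 8.01 in CL11, and was at least 3.68-fold higher (adjusted p = 7.1e-05). The IP14D-1 arrays were above every CL11 array for each of these 3 genes. Ccdc80, a secreted matrix-binding protein, was at 11.87, 11.67 and 11.57 in IP14D-1 and 7.60, 7.17 and 8.50 in CL11, at least 1.59-fold higher (adjusted p = 9.5e-05), and Postn was at least 1.38-fold higher (adjusted p = 7.0e-04). Lox was at least 5.88-fold higher (adjusted p = 1.3e-05) and Bgn at least 3.94-fold higher (adjusted p = 8.2e-07). These bounds are small next to the distance from MEF: IP14D-1 held 1.31% of the MEF signal for Tnc, 1.63% for Ccn4 and 2.07% for Thbs1.

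Among the metalloproteinases, Mmp3 was at least 1.83-fold higher in IP14D-1 than in CL11 (adjusted p = 8.3e-04), Mmp13 at least 1.13-fold higher (adjusted p = 3.1e-04) and Mmp2 1.59-fold higher (log2 difference 0.67 ± 0.13, adjusted p = 7.4e-04). Mmp14 and the 3 inhibitors did not pass the test, with log2 differences of 0.05 ± 0.12 for Mmp14, -0.24 ± 0.11 for Timp1, 0.34 ± 0.15 for Timp2 and 0.80 ± 0.30 for Timp3. Eln, at 11.83, 11.59 and 11.42 in IP14D-1 and 11.36, 9.92 and 10.44 in CL11, Vcan, at 13.63, 13.70 and 14.05 in IP14D-1 and 12.98, 12.78 and 12.97 in CL11, and Fbln2 were higher in the fit over all arrays. These 3 calls were less stable. Vcan had a difference of 0.65 and an adjusted p of 0.32 with the mean of its probe sets, Fbln2 turned to -0.17 under that setting, and the Eln call was lost without CL11 replicate 2 or IP14D-1 replicate 1.

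**Figure D3:**
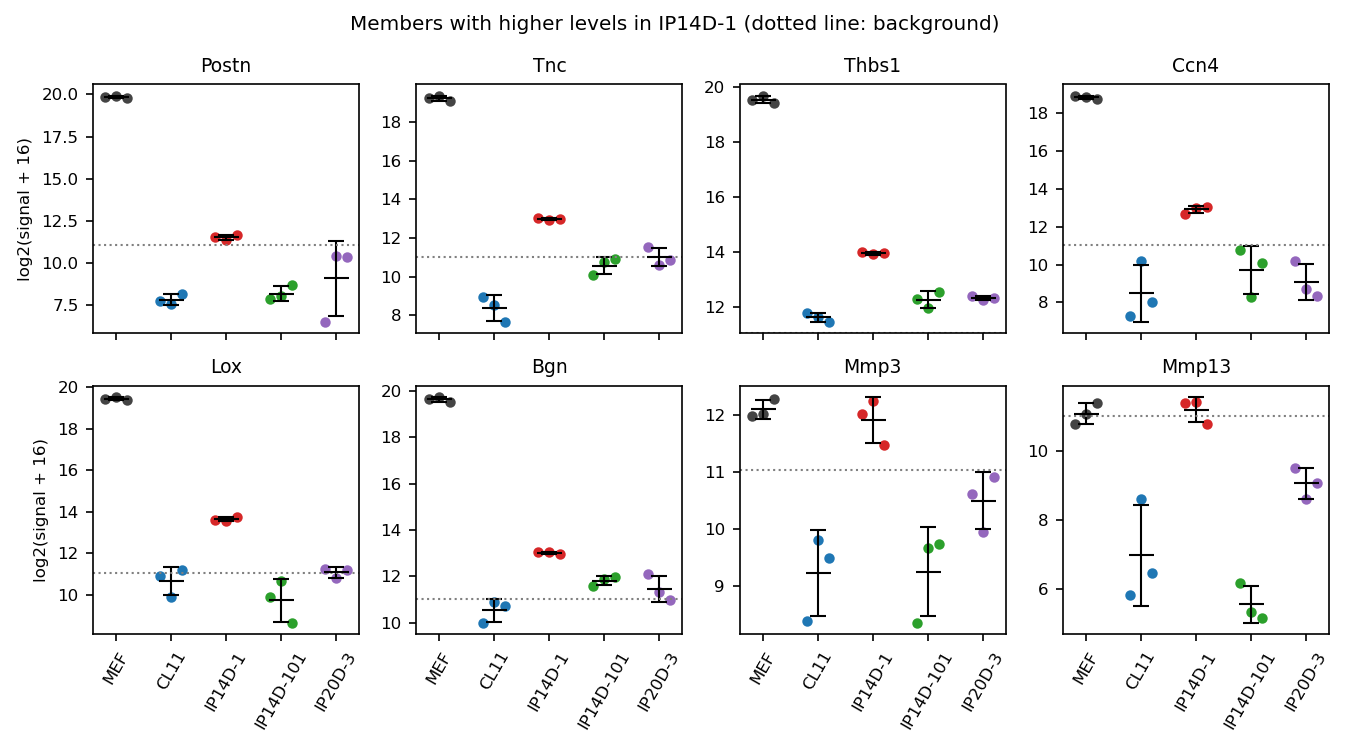
Level of 8 matrix genes, picked from those called higher in IP14D-1 than in CL11, on each array (points), as log2(signal + 16), by group. Bars give the group mean and SD, and a dotted line the background level. The 3 IP14D-1 arrays lie above every array of CL11 for each gene shown.

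IP14D-1 also stood apart in other measures, whose part in these differences was not tested. Its ratio of 3' to 5' actin signal, which rises as RNA degrades, was 1.37 ± 0.0365 (SD, n = 3), beside 1.21 ± 0.0184 in CL11, 1.28 ± 0.0263 in IP20D-3 and 1.22 ± 0.0636 in IP14D-101, while the ratio for Gapdh was 0.850 in IP14D-1 and 0.795 to 0.809 in the other lines. Of 10 smooth muscle markers 8 were higher in IP14D-1 than in CL11 and 0 lower. Acta2, smooth muscle actin, was 10.8-fold higher (log2 difference 3.44 ± 0.12, adjusted p = 1.5e-12). Tagln, which encodes the actin-binding protein transgelin, was 11.8-fold higher (adjusted p = 4.5e-13). In IP20D-3 and in IP14D-101, 5 of the 10 were higher than in CL11 and 0 lower, Acta2 and Tagln among the higher. The summed signal of the 10 smooth muscle markers was 11.2% of MEF in IP14D-1, 3.95% in CL11, 5.77% in IP20D-3 and 5.06% in IP14D-101. Of 13 fibroblast markers Cxcl12 and Twist1 were higher than in CL11, Pdgfra, which is also on the endoderm list, was lower, and 10 were not called. The median difference of the 13 was 1.20, larger than the 0.67 of the matrix genes, with 3 of the 13 above background in CL11 and 5 in IP14D-1. Thy1 was above background in all 4 lines, Twist1 and Cxcl12 in the 3 iPS lines and S100a4 in IP14D-1. Prrx2 was above background in CL11, IP14D-1 and IP14D-101, and Pdgfra in CL11 and IP14D-101. Pdgfrb, Prrx1, Twist2, Cd248, Fap, Ddr2 and Fgf7 were below background in all 4 lines. The part of these markers in the differences was not tested. The collagen genes Col1a1 and Col1a2 were at least 2.37-fold and 2.52-fold higher in IP14D-1.

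IP14D-101 had the fewest called members against CL11: 6 of 32 members were higher and 4 lower, where 6.05% of all genes were higher and 5.45% lower. The median difference of the members was 0.01, beside 0.00 over all genes. Higher were Tnc, Thbs1, Eln, Fbln1, Bgn and Ogn, and lower Sparc, Nid1, Mfap5 and Dcn, of which Tnc, Dcn and Ogn were below background in both lines. The 3 calls kept in every alternative run were the lower Sparc, Nid1 and Mfap5. Thbs1 was 1.57-fold higher (adjusted p = 0.0045), Fbln1 1.71-fold higher (adjusted p = 5.0e-04), Bgn at least 1.71-fold higher and Eln at least 1.47-fold higher, and none of these 4 held under every alternative. With the spread taken from the 6 arrays compared alone, 4 members were called.

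IP20D-3 had 9 of 32 members higher than CL11 and 6 lower, where 10.6% of all genes were higher and 11.3% lower, and a median difference of 0.45 beside 0.02. With no scaling of the arrays 6 members were higher and 9 lower, and with median scaling 7 and 7. Higher were Tnc, Fn1, Thbs1, Eln, Fbln1, Bgn, Ogn, Mmp2 and Mmp13, and lower Sparc, Nid1, Mfap5, Loxl1, Timp1 and Timp2. Tnc, Ogn and Mmp13 were below background in both lines. The 6 calls kept in every alternative run were Tnc and Fn1 higher and Sparc, Nid1, Mfap5 and Loxl1 lower. Fn1 was 1.55-fold higher (log2 difference 0.63 ± 0.09, adjusted p = 5.3e-05), and Mmp2 was 1.51-fold higher (adjusted p = 0.0023). Eln was at least 1.88-fold higher (adjusted p = 9.3e-04), Thbs1 1.63-fold higher (adjusted p = 9.9e-04) and Bgn at least 1.35-fold higher (adjusted p = 0.009). Loxl1 was 1.88-fold lower (adjusted p = 1.4e-04), Timp2 2.11-fold lower (adjusted p = 3.6e-05) and Timp1 1.27-fold lower (adjusted p = 0.04). Postn was not called in this comparison, at an adjusted p of 0.23, and became so without IP20D-3 replicate 1, which read 6.50 beside 10.41 and 10.34 on the other arrays (difference 2.56, adjusted p = 5.2e-05).

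Sparc, Nid1 and Mfap5 were lower in each of the 3 iPS lines than in CL11, in comparisons that share the CL11 arrays. For Sparc the log2 difference was -1.19 ± 0.10 in IP14D-1 (adjusted p = 1.9e-07), -1.47 ± 0.10 in IP20D-3 (adjusted p = 1.2e-08) and -1.23 ± 0.10 in IP14D-101 (adjusted p = 4.0e-07). Nid1 stood at 18.48, 18.57 and 18.60 in MEF, 16.67, 16.50 and 16.39 in CL11, 15.29, 15.35 and 15.28 in IP14D-1, 15.31, 15.10 and 15.11 in IP20D-3 and 15.65, 15.75 and 15.69 in IP14D-101. Each iPS array lay below each CL11 array, with log2 differences of -1.21 ± 0.08, -1.35 ± 0.08 and -0.82 ± 0.08 in IP14D-1, IP20D-3 and IP14D-101 (adjusted p = 7.2e-09, 1.5e-09 and 2.1e-06). For Mfap5 the differences were -0.66 ± 0.20, -1.02 ± 0.20 and -1.31 ± 0.20 in IP14D-1, IP20D-3 and IP14D-101 (adjusted p = 0.02, 9.8e-04 and 2.3e-04), of which the first was not kept in every alternative. Markers of primitive and parietal endoderm, an early embryonic cell type that lays down basement membrane, were also high in CL11. Their summed signal was 52.1% of MEF in CL11, 13.8% in IP14D-1, 11.6% in IP20D-3 and 40.6% in IP14D-101. MEF had the highest sum, with 7 of the 13 above background, Col4a1 and Lamb1 among them but not Gata4, Sox17, Sox7 or Foxa2. A percent of MEF is therefore no measure of endoderm content. Of the 13 markers, 10 were lower in IP14D-1 and in IP20D-3 than in CL11 but 2 in IP14D-101. Lama1, Lamb1 and Col4a1 belong both to this marker list and to the list of basement membrane genes. The defining factors Gata4 and Gata6 were 5.45-fold and at least 13.4-fold lower in IP14D-1. Their part in the Sparc, Nid1 and Mfap5 differences was not tested.

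**Figure D4:**
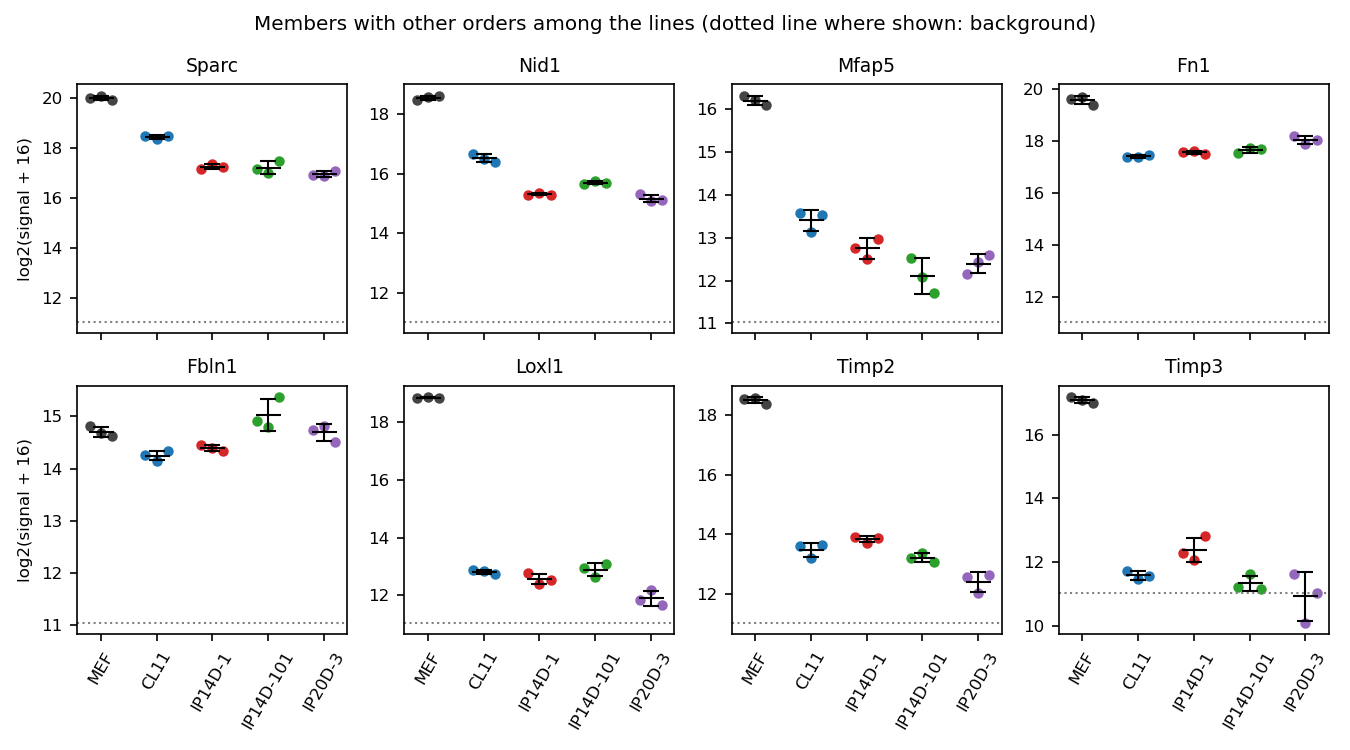
Level of 8 matrix genes with other orders among the lines on each array (points), as log2(signal + 16), by group, with the group mean and SD as bars and the background level as a dotted line where it falls within the axis. Sparc, Nid1 and Mfap5 are higher in CL11 than in the 3 iPS lines, Fn1 is highest among the lines in IP20D-3, and Loxl1 and Timp2 are lowest there.

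The last question was whether the iPS lines differed among themselves. IP14D-101 had 2 of 32 members higher than IP14D-1 and 18 lower, where 14.9% of all genes were higher and 13.1% lower, and the members' median difference was -0.63 beside -0.04. Higher were Nid1 and Fbln1, by 0.39 ± 0.08 (adjusted p = 0.0011) and 0.63 ± 0.13 (adjusted p = 0.001), and Nid1 turned to -0.09 with no scaling of the arrays. Lower were Postn, Tnc, Thbs1, Ccn4, Ccdc80, Fbln2, Fbln5, Mfap5, Bgn, Dcn, Vcan, Lox, Loxl3, Mmp2, Mmp3, Mmp13, Timp2 and Timp3, with Fbln5 and Dcn below background in both lines. Mfap5 was called although the arrays of the lines overlapped. Lox was at least 6.08-fold lower (adjusted p = 6.4e-07), Tnc at least 3.86-fold lower (adjusted p = 1.4e-05) and Thbs1 3.23-fold lower (adjusted p = 1.1e-07). The 9 calls kept in every alternative run that tested the gene were Postn, Tnc, Thbs1, Ccn4, Ccdc80, Bgn, Lox, Mmp3 and Mmp13. Of these, Ccdc80, Mmp3 and Mmp13 were left out of the run limited to genes above background. With no scaling of the arrays 0 members were higher and 21 lower, and with median scaling 6 and 13.

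IP20D-3 had 1 of 32 members higher than IP14D-1, Fn1, and 11 lower, where 4.87% of all genes were higher and 4.32% lower, and a median difference of -0.45 beside -0.02. Fn1 had a log2 difference of 0.46 ± 0.09 (adjusted p = 0.0032), which turned to -0.08 with no scaling of the arrays. Lower were Postn, Tnc, Thbs1, Ccn4, Ccdc80, Mfap2, Bgn, Lox, Loxl1, Timp2 and Timp3. Thbs1 was 3.10-fold lower (adjusted p = 5.4e-07) and Lox 5.95-fold lower (adjusted p = 2.4e-04). Timp2 was 2.68-fold lower (adjusted p = 7.0e-06) and Mfap2, a microfibril glycoprotein, 2.36-fold lower (adjusted p = 0.026). For Mfap2 the arrays of the lines overlapped. Its difference was -0.72 (adjusted p = 0.11) without IP20D-3 replicate 1, and its call was lost in other runs too, such as median scaling (0.052). Postn lost its call without IP20D-3 replicate 1 (adjusted p = 0.061) and without IP14D-1 replicate 1, 2 or 3 (0.096, 0.087 and 0.099). It was also lost in other runs, among them median scaling (0.052) and the 6 arrays alone (0.12). The 6 calls kept in every alternative run were Tnc, Thbs1, Ccn4, Bgn, Lox and Timp2. With no scaling 22 members were lower and 0 higher.

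Between IP20D-3 and IP14D-101, 5 of 32 members were higher in IP20D-3 and 4 lower, where 11% of all genes were higher and 12.5% lower, and the median difference was 0.25 beside 0.01. With median scaling 3 members were higher and 8 lower, and with no scaling 3 and 4. Higher were Fn1, Lox, Fbln5, Dcn and Mmp13, the last 3 below background in both lines, and lower were Nid1, Loxl1, Mmp14 and Timp2. Fn1 was 1.30-fold higher (adjusted p = 0.0046) and Lox at least 1.02-fold higher (adjusted p = 0.013). Nid1 was 1.44-fold lower (adjusted p = 8.9e-05), Timp2 1.75-fold lower (adjusted p = 5.8e-04) and Mmp14 1.39-fold lower (adjusted p = 0.0058). Loxl1, 1.99-fold lower (adjusted p = 5.7e-05), was the 1 call kept in every alternative run. Without IP14D-101 replicate 2 the count of called members rose from 9 to 15.

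Genes that act with the members were described from lists chosen by name. Their counts stand beside the shares of all genes given above, 29.9% to 30.4% higher and 22.9% to 24.7% lower against MEF, and 11.7% higher and 12.6% lower in IP14D-1 against CL11. Of 23 measured further metalloproteinase and inhibitor genes, 17 were lower than MEF in CL11, 16 in IP14D-1, 16 in IP20D-3 and 15 in IP14D-101. Adamts5 and Adamts12, which cut proteoglycans and other matrix proteins, and Adam12 were at least 63.3-fold, at least 33.7-fold and at least 28.2-fold lower in CL11. Adamts9, also a versican-cutting enzyme, was the 1 gene of the list higher than MEF, in CL11, by 1.16 ± 0.27 (adjusted p = 0.0012). Of 15 enzymes and chaperones of collagen synthesis, 13 were lower in CL11 and 12 in each iPS line. P4ha3, a prolyl hydroxylase, was at least 12.2-fold lower in CL11, P3h3 13.4-fold lower and Pcolce, which aids the trimming of procollagen, 4.86-fold lower. Pcolce2 was higher in CL11 by 0.63 ± 0.17 (adjusted p = 0.0037), and Colgalt2 was called higher there with both groups below background. In IP14D-1 against CL11, 1 gene of collagen synthesis was higher and 7 lower, among them P4ha2 (log2 difference -1.73 ± 0.15) and Plod1, a lysyl hydroxylase (-1.62 ± 0.10).

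The basement membrane genes divided evenly, with 7 of 15 higher and 7 lower than MEF in each line, where 29.9% to 30.4% of all genes were higher and 22.9% to 24.7% lower. Lama3 was at least 8.73-fold higher in CL11, and Lama1, the laminin chain of the early embryo, was higher by 3.55 ± 0.16 in CL11, 0.57 ± 0.16 in IP14D-1, 1.25 ± 0.16 in IP20D-3 and 3.02 ± 0.16 in IP14D-101. Lama4, a laminin chain of vessels, was at least 15.8-fold lower in CL11 and Lama2, the chain of muscle, at least 7.46-fold lower. Against CL11, 2 of 15 were higher and 7 lower in IP14D-1, 1 and 8 in IP20D-3, and 1 and 5 in IP14D-101. Lama1, Col4a1 and Col4a2 differed by -2.98, -2.37 and -2.05 in IP14D-1 and by -2.30, -3.69 and -3.67 in IP20D-3, but by -0.53, -0.62 and -0.80 in IP14D-101.

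Integrins, the receptors of the matrix, were lower than MEF in 10 of 17 in CL11, IP14D-1 and IP14D-101 and in 11 in IP20D-3. The laminin receptors Itga3, Itga6 and Itgb4 and the leukocyte subunit Itgb7 were higher in each line, Itga3 by 3.52 ± 0.12 and Itga6 by 2.96 ± 0.09 in CL11. In IP14D-1 against CL11, 2 were higher and 3 lower, near the 11.7% and 12.6% of all genes, and Itgav, a fibronectin and vitronectin receptor subunit, was higher by 0.66 ± 0.10 (adjusted p = 5.7e-05). Of 24 TGF-beta pathway genes, which include inducers and targets of matrix synthesis, 18 were lower than MEF in CL11, 16 in IP14D-1, 19 in IP20D-3 and 18 in IP14D-101. The ligands Tgfb3 and Tgfb2 were at least 89.2-fold and at least 24.0-fold lower in CL11, and the receptor Tgfbr2 was 44.8-fold lower. Ltbp4, a binding protein of latent TGF-beta, and Smad7, an inhibitor of the pathway, were higher in all 4 lines, by 1.71 ± 0.07 and 1.07 ± 0.07 in CL11. In IP14D-1 against CL11, 9 of 24 were higher and 6 lower. The lower genes were Eng, Ltbp3, Smad2, Smad3, Tgfb1 and Tgfbi. Tgfb2 was at least 1.92-fold higher (adjusted p = 1.2e-05), Fst, the activin antagonist follistatin, 7.15-fold higher (adjusted p = 8.2e-08) and Ccn1 3.03-fold higher (adjusted p = 1.0e-06).

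Of 13 Hippo pathway and SRF factors, 10 were lower than MEF in each line. Wwtr1, the coactivator TAZ, was lower in CL11, with a log2 difference of -2.52 ± 0.11. Tead4 and Tead2, its DNA-binding partners, were higher in CL11 by 2.23 ± 0.25 and 0.36 ± 0.10, and Tead4 was lower in IP14D-1 than in CL11, with a log2 difference of -2.41 ± 0.25. Against CL11, IP14D-1 had 3 of the 13 higher, Wwtr1, Amotl2 and Tead3, and 2 lower, Srf and Tead4. Wwtr1 and Amotl2 were higher in IP14D-1 than in CL11 by 0.77 ± 0.11 and 0.86 ± 0.08 (adjusted p = 3.6e-05 and 2.5e-07).

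The summed signal of the 32 matrix genes, in which the brightest probe sets weigh most, was 7.04% of MEF in CL11, 5.61% in IP14D-1, 5.31% in IP20D-3 and 5.27% in IP14D-101. By this sum CL11 was the highest line, whereas by the median level and by the number above background IP14D-1 was. Markers of macrophages and blood summed to 39.5% to 86.6% of MEF in the lines, a sum carried by few genes: in CL11 8 of 10 were lower than MEF and Cd68 and Laptm5 higher, and the median difference from MEF was -3.64 in CL11 and -3.15 to -4.26 in the iPS lines. The sums were 87.4% to 178% of MEF for endothelium markers and 70.1% to 105% for those of cartilage and bone. Between IP14D-1 and CL11, 0 of 10, 0 of 7 and 0 of 6 of these 3 lists were higher and 2, 0 and 0 lower.

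**Figure D5:**
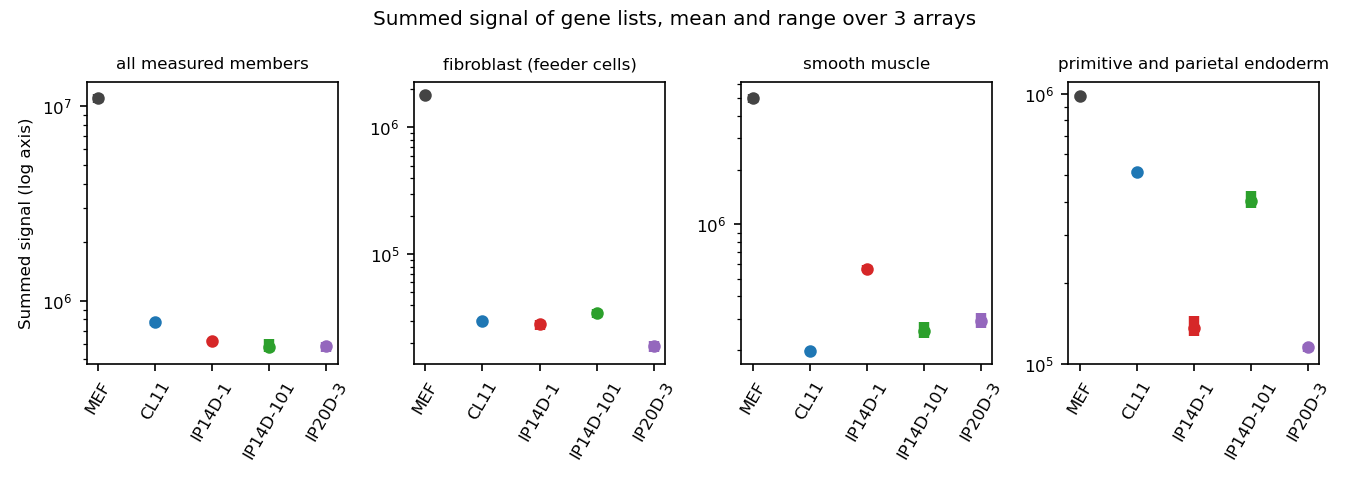
Summed signal, on a log axis, of the 32 matrix genes and of the fibroblast, smooth muscle and endoderm markers in each group, with a point for the mean and a bar for the range over 3 arrays. Among the lines, smooth muscle markers are highest in IP14D-1 (11.2% of MEF) and endoderm markers in CL11 (52.1%) and IP14D-101 (40.6%). The fibroblast sum, which holds Pdgfra, is 1.65% of MEF in CL11 and 1.55% in IP14D-1. The median of the 13 single-marker log2 differences of IP14D-1 from CL11 was 1.20, and 10 of the 13 were not called.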

How the data were processed

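Expression was compared on 15 Affymetrix mouse arrays, 3 in each of 5 groups, which the design text calls biological replicates, so p-values measure the spread between these samples. The deposited intensity values are MAS5 signals. MAS5 and Affymetrix Expression Console are named by the submitters' processing notes, without versions. Raw scans were not read.

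An array has 45101 probe sets. Besides 64 controls, 34945 of them name 1 gene and were used, 932 name several and 9160 name none. Gene symbols came from the platform annotation, and 18032 of 18193 genes matched the RefSeq gene table, with 0 symbols changed. Trimmed means (2%) lay between 11141.8 and 20355.5 on single arrays, 1.83 times apart, so each array was scaled to a common one, and values were taken as log2(signal + 16). A gene was represented by its brightest probe set. The 32 measured members have 76 probe sets, 7 members having 1 and 25 several. A signal of 2087, which 95% of the values of 39 olfactory receptor genes did not exceed, served as background, and 64.0% of gene values were brighter.

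Tests were run in limma 3.58.1 (R 4.3.3), with a mean for each group over all 15 arrays, variances moderated with a trend, and Benjamini-Hochberg adjustment over 18193 genes within each comparison. A gene was called at an adjusted p under 0.05. Errors with log2 differences are model standard errors. Where 1 group lay below background, folds are lower bounds with its dim arrays raised to background, and where both did, no fold is given. The fit was tested on simulated data. The number of arrays limits the precision.

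The members and the other gene lists were chosen with earlier results of these data known. Array values are given for the 3 brightest members of each role in MEF, for Mmp3, Mmp13 and Fbln1, and for members called between lines with the brighter group above background, in part by fold only. From the other lists up to 3 called genes with the largest change, and those against the list's direction, are eligible. Tables were read with Python 3.11.15 and pandas 2.3.3 and figures drawn with matplotlib 3.10.9.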

Additional observations from a re-analysis of the deposited data

Results flagged for a closer look

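The number of called matrix genes differed between pairs of lines. It was 17 for IP14D-1 against CL11, 10 for IP14D-101 against CL11, 15 for IP20D-3 against CL11, 20 for IP14D-101 against IP14D-1, 12 for IP20D-3 against IP14D-1 and 9 for IP20D-3 against IP14D-101. Over all 18193 genes the counts in the same order were 4412, 2092, 3984, 5085, 1672 and 4274. These also differed between pairs, but the member counts did not follow them throughout. IP20D-3 against IP14D-1 had the fewest genes called, 1672, with 12 members, and IP20D-3 against IP14D-101 the fewest members, 9, with 4274 genes. The member counts are picked out because lines put through the same contrast with MEF differed from each other, by limma's test of the line difference itself. The counts share arrays between comparisons.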

How the results depend on the processing

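Against MEF the count of called members stayed within 1.5 times its value in each alternative run, with leaving out 1 array giving 32 to 32 in CL11, 29 to 30 in IP14D-1, 31 to 32 in IP14D-101 and 29 to 31 in IP20D-3. Between lines the same ranges were 15 to 17 (IP14D-1 and CL11), 7 to 11 (IP14D-101 and CL11), 13 to 15 (IP20D-3 and CL11), 16 to 20 (IP14D-101 and IP14D-1), 10 to 12 (IP20D-3 and IP14D-1) and 8 to 15 (IP20D-3 and IP14D-101). With the mean of all probe sets of a gene the counts fell to 9 for IP20D-3 and CL11, 13 for IP14D-101 and IP14D-1, and 5 both for IP14D-101 and CL11 and for IP20D-3 and IP14D-101. With only the 6 arrays compared, IP14D-101 and CL11 gave 4. With no scaling, IP20D-3 and IP14D-1 gave 22. The cause was not tested. Of 83 calls between lines, the mean of all probe sets lost 33 with the direction kept, the 6 arrays alone 22, median scaling 14 and no scaling 9. Calls lost as the direction turned are not in these counts and are given below.

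Directions turned in these cases. Fbln1 in IP14D-101 against MEF was -0.25 with no scaling (adjusted p = 0.197), -0.057 with the mean of probe sets (0.896) and -0.056 without probe sets whose suffix marks shared sequence (0.898). Fbln2 in IP14D-1 against CL11 was -0.17 (0.867) and -1.28 (0.369) under the last 2 settings, and in IP14D-101 against IP14D-1 it was 0.47 (0.773) without such probe sets. Fn1 in IP14D-101 against IP14D-1, 0.08 and not called as reported, was -0.40 with no scaling (0.00806) and -0.56 with the mean of probe sets (0.00403). With no scaling Nid1 in IP14D-101 against IP14D-1 was -0.0896 (0.607) and Fn1 in IP20D-3 against IP14D-1 -0.083 (0.575).

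Scaling also moved the share of all calls that were higher. For IP14D-1 against CL11 it was 48.2% as reported, 88.2% with no scaling and 21.7% with median scaling. For IP14D-101 against CL11 the 3 shares were 52.6%, 19.6% and 72.4%, for IP20D-3 against CL11 48.2%, 18.7% and 30.8%, for IP14D-101 against IP14D-1 53.2%, 5.7% and 83.9%, for IP20D-3 against IP14D-1 53%, 1% and 72.6%, and for IP20D-3 against IP14D-101 47%, 36.8% and 19.6%. Against MEF they were 56%, 39.2% and 64.3% in CL11, 55.2%, 33.4% and 67.3% in IP14D-101 and 56.3%, 31.7% and 59.8% in IP20D-3. With no scaling the median of all genes shifted to 0.35 in IP14D-1 against CL11 and to -0.56 in IP20D-3 against IP14D-1.

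The labels share replicate numbers, but the 30 same-numbered pairs of arrays had deviations correlated at -0.0296 to 0.0334, with 0 over 0.1, and 3 of 15 arrays correlated best with their own number. A pairing by number was thus not detected, which does not show that same-numbered samples were handled apart. With the replicate block, 17 members were called for IP14D-1 against CL11. The block lost 2 of 125 calls against MEF, Fbln1 in IP14D-1 and in IP14D-101, and 2 of 83 between lines, Mmp13 in IP20D-3 against CL11 and Fbln5 in IP20D-3 against IP14D-101. Levels below background limit what can be said of the dimmest members.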
